A study of Mus musculus with 120 samples.

Results

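The acyl-CoA thioesterase and CoA turnover genes described here are 10 rows of a liver expression table: Acot1, Acot2, Acot3, Acot4, Acot12, Acot13, Vnn1, Pank1, Nudt7 and Nudt19. They were picked by symbol out of 24883 rows, with earlier results of these data known. The test took genes whose mean value reached 1, which left 12203 genes, all 10 of these among them. RNA was sequenced from flash-frozen livers of 10 Collaborative Cross strains, inbred mouse lines that each mix the genomes of several founder strains. Mice of each strain and sex ate an HF/HS diet (high fat, high sucrose) or a control diet for 12 weeks. The HF/HS diet gave 42% of its energy as milkfat, held 0.2% cholesterol and was over 30% sucrose, and the control diet had matched ingredients with little fat and less sucrose. The strains were CC060, CC043, CC042, CC041, CC040, CC032, CC019, CC013, CC011 and CC003. The labels name no allele or agent beyond strain and diet and give no age. There were 3 libraries in each of 40 groups.

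Of 120 libraries, all but 2 were used: 59 on the HF/HS diet and 59 on the control diet, with 30 males and 29 females on each. The columns of a CC040 female control library and a CC040 female HF/HS library held equal values, and both were left out. Values are the deposited normalized, FPKM-like values, with a 75th percentile of about 10 in every library, and depth in reads is unknown. CC003 libraries summed to 3192044 to 4629868 and the other strains' libraries to 926928 to 1986957. Snord104, a small nucleolar RNA without a poly(A) tail, had a median of 755340 in CC003 and of 0 in CC060, while medians of the remaining 8 strains ran between 25043 and 53198. Since the kit of each library is not given, strain and library preparation cannot be told apart in CC003 and CC060. The hepatocyte marker Alb was listed at 0 in 102 libraries, while the other hepatocyte markers were read. The labels do not state whether libraries of the same group are from different mice. Each p-value therefore rests on spread between libraries, which may be technical.

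Acyl-CoA thioesterases cut acyl-CoA into a free fatty acid and coenzyme A (CoA), and so set how much CoA is bound to acyl chains. Acot1 works in the cytosol, Acot2 in mitochondria, and Acot3 and Acot4 in peroxisomes. Acot12 cuts acetyl-CoA in the cytosol, and Acot13 cuts long-chain acyl-CoA at mitochondria. Pank1 is a pantothenate kinase of the first step of CoA synthesis. Nudt7 and Nudt19 are peroxisomal hydrolases that break CoA down, and Vnn1 is a pantetheinase that releases pantothenate from the breakdown products. Many of these genes are known targets of the fatty acid receptor PPAR-alpha in mouse liver, and several are known to be induced there by fasting.

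The type I genes lie side by side on chromosome 12 of mm10 within 71.7 kb, all on the plus strand, in the order Acot2 (83987860 to 83993875), Acot1 (84009501 to 84017669), Acot4 (84038378 to 84044723) and Acot3 (84052150 to 84059564). Acot12 (91741520 to 91786148) and Acot13 (24817954 to 24831489) are on chromosome 13, Vnn1 on chromosome 10 (23894687 to 23905343), Pank1 on chromosome 19 (34806935 to 34879455), Nudt7 on chromosome 8 (114133573 to 114152312) and Nudt19 on chromosome 7 (35547184 to 35555928). The last 30 coding bases with the stop codon, from the GENCODE vM21 transcripts (GRCm38, plus strand except Nudt19 on the minus strand), are printed because the last amino acids of a protein can carry a signal for import into peroxisomes. Capitals mark the last 3 codons before the stop. Acot3, Acot4, Nudt7 and Nudt19 are known as peroxisomal proteins, and Acot1 and Acot2 are not.

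Acot1 (chr12:84017350-84017379): gagtgtttgcatgtgtctCCTAAAATAtaa
Acot2 (chr12:83993051-83993080): ttccacaaacagttgggtAGCAAGAGTtag
Acot3 (chr12:84058997-84059026): aaaaagaagacaatcccaGCAAAACTGtga
Acot4 (chr12:84043767-84043796): acccacagcagagcctccTGTAGACTGtag
Nudt7 (chr8:114151987-114152016): ctttggagatattctttaAGCAAGTTGtga
Nudt19 (chr7:35547909-35547938): gtgaataagagatgtactGCCCACCTGtaa

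The coding sequences of Acot1 and Acot2 were equal at 95.5% of 1239 aligned bases, while Acot4 matched the other 3 at 74.2% to 75.4%. Of the 50-base windows of the Acot1 coding sequence, 59.0% also occurred in transcripts of another gene, most often Acot2. That share was 45.2% for Acot2, 52.8% for Acot3 and 20.5% for Acot4, and 0 for each of the other 6 genes. The authors' counting could therefore move reads between Acot1 and Acot2, and between Acot3 and its neighbours, so their separate values are uncertain. Sums of Acot1 and Acot2 and of Acot1 to Acot4 are given beside them. Acot3 shared windows most often with the gene model Gm49366 (30.4% of its windows), then with Acot5, and neither is in a sum. Acot3 and Acot4 also overlap the same-strand gene model Gm49366 and an antisense gene, and Acot12 and Nudt19 each overlap an antisense gene. The sources used here do not say whether counting used strand.

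RefSeq promoters (GRCm38.p6, from 250 bases before to 50 after each gene start) were given for 8 of the 10 genes, in 11 windows; Vnn1 and Acot13 had none. Nuclear receptors such as PPAR-alpha bind paired copies of AGGTCA, and these letters, searched on both strands, stood in 16.3% of 32851 promoters and in those of 3 of the 8 genes: Acot3, Acot4 and Acot12. The letters TTCNNNGAA, bound by STAT5 factors downstream of growth hormone, stood in 8.30% of promoters and in none of the 8. The stretches around the AGGTCA matches are printed on the plus strand with the match, which reads on the minus strand, in capitals.

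Acot4 (chr12:84038346-84038391): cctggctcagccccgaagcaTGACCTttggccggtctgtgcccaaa
Acot3 (chr12:84052142-84052187): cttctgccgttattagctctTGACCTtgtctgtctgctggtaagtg
Acot12 (chr13:91741391-91741436): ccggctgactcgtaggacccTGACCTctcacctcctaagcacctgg

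Per unit of transcript length, Nudt7 had the highest mean level of the 10 genes, 586 ± 409 (SD over all libraries used), and Acot2 the lowest, 10.3 ± 8.32. The means of Acot13, Acot12 and Pank1 were 93.0 ± 35.8, 80.0 ± 19.5 and 70.5 ± 17.1. Those of Acot3, Acot1, Vnn1, Acot4 and Nudt19 were 45.2 ± 58.5, 43.8 ± 41.6, 37.6 ± 31.9, 33.7 ± 22.4 and 32.3 ± 13.4. The SDs of Acot1 and Acot3 were close to or above their means, and neighbours in this order overlapped in their ranges. All 10 genes were above 0 in every library used.

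The diet comparison asked how liver transcripts differ after 12 weeks of HF/HS feeding. Over all strains and both sexes, 4 of the 10 genes rose on the HF/HS diet (Vnn1, Acot1, Acot2 and Acot12), and Nudt19 fell. Calls were made with limma on log2(value + 1), over the means of the 40 groups, at a Benjamini-Hochberg adjusted p under 0.05 over all 12203 genes. By this rule 32.6% of all tested genes were called, so 5 of 10 genes is read against that share. Because the 10 genes were chosen with earlier results known, their counts against such shares, here and below, are a description. The median log2 difference of the 10 genes was 0.056, against 0.00059 over all tested genes. Fold changes on this scale understate those of low genes such as Acot2 and Acot3.

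Vnn1 moved most. It had a lowest value of 2.05, a median of 45.6 and a highest of 139 on the HF/HS diet (n = 59), against a lowest value of 0.593, a median of 22.6 and a highest of 92.5 on the control diet (n = 59). The log2 difference was 0.99 ± 0.12 (SE), adjusted p = 5.82e-11, a fold of 1.99. The ranges of the diets overlapped across strains, but 18 of the 20 strain-sex means were higher on the HF/HS diet, with CC013 and CC019 females as the exceptions. Vnn1 was the only gene of the 10 called in females, at 0.62 ± 0.17 (SE), adjusted p = 0.00493, where 17.7% of all tested genes were called. That call was lost without the female HF/HS libraries numbered 2 (0.53, adjusted p = 0.0582). With strain as the unit it was also lost (adjusted p = 0.116). In males its difference was 1.36 ± 0.16 (SE), adjusted p = 2.00e-10.

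Acot1, the cytosolic enzyme, had a lowest value of 7.07, a median of 39.3 and a highest of 219 on the HF/HS diet, against a lowest value of 0.759, a median of 28.9 and a highest of 255 on the control diet. Its log2 difference was 0.79 ± 0.17 (SE), adjusted p = 0.000120. Acot2, its mitochondrial neighbour, had a lowest value of 1.79, a median of 10.5 and a highest of 35.3 on the HF/HS diet, against a lowest value of 0.210, a median of 7.11 and a highest of 43.0 on the control diet. Its log2 difference was 0.67 ± 0.11 (SE), adjusted p = 7.78e-07. For both genes the lowest libraries on the control diet lay far below the lowest on the HF/HS diet, and 17 of 20 strain-sex means were higher on the HF/HS diet. The sum of Acot1 and Acot2 differed by 0.81 ± 0.16 (SE), adjusted p = 3.78e-05.

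**Figure D1:**
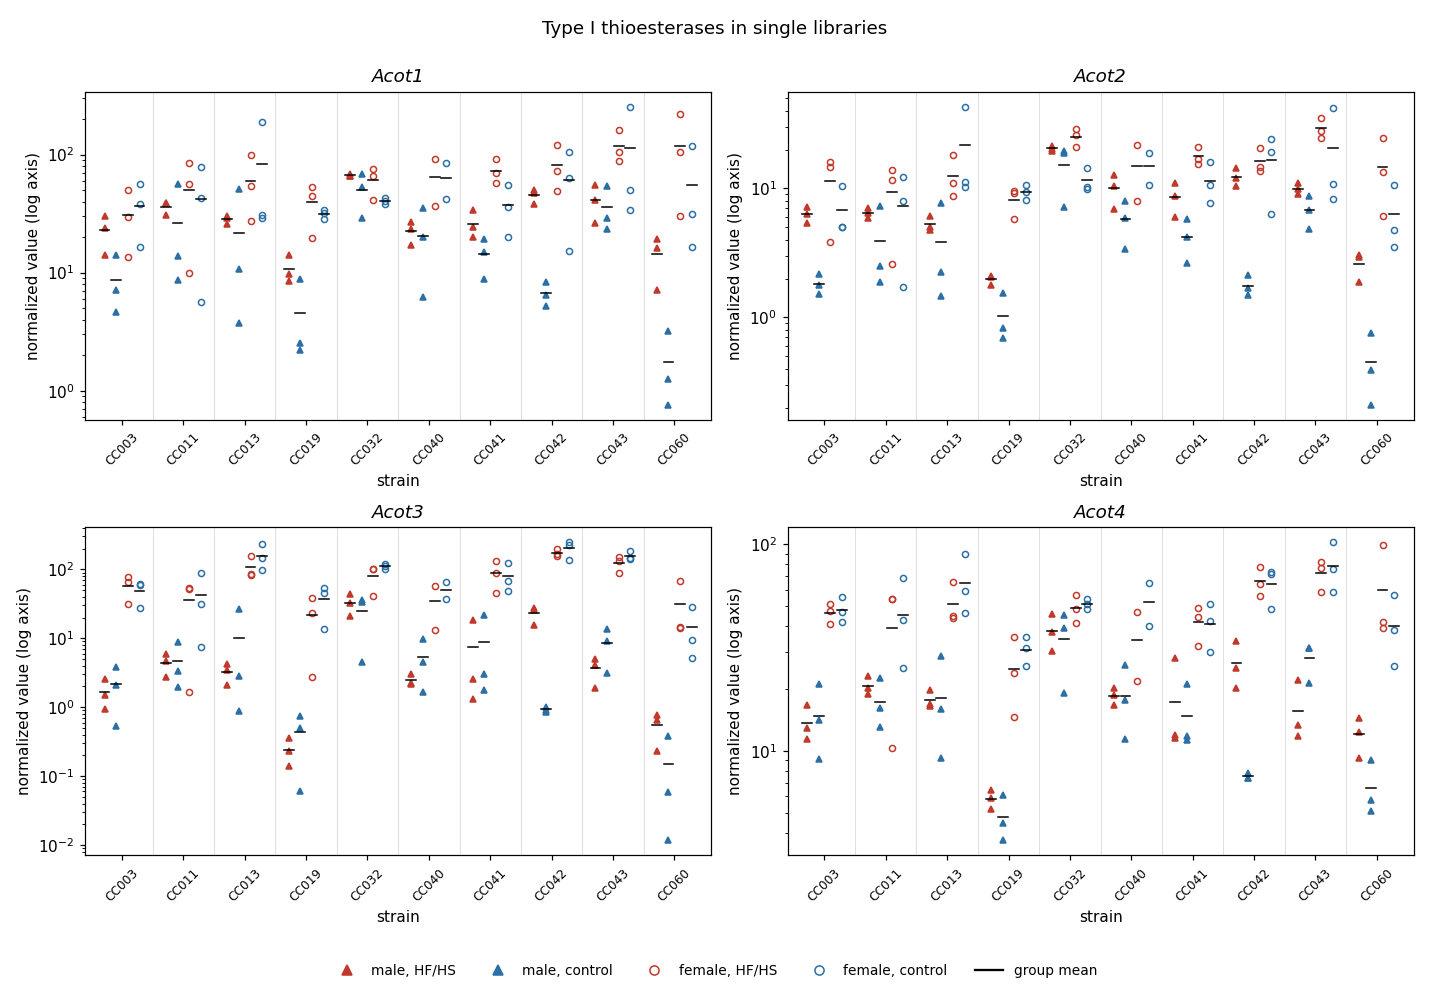
Normalized value (log axis) of Acot1, Acot2, Acot3 and Acot4 in each library, by strain; triangles are males, open circles females, red the HF/HS diet, blue the control diet, and bars are group means. Acot3 separates the sexes in every strain on average, and CC042 males on the HF/HS diet stand above CC042 males on the control diet for all 4 genes.

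In males on the HF/HS diet, Acot1, Acot2, Acot12 and Vnn1 rose and Nudt19 fell, where 20.9% of all tested genes were called. Male Acot1 averaged 31.4 ± 17.0 on the HF/HS diet and 19.0 ± 19.3 on the control diet (SD, n = 30 each), a log2 difference of 1.16 ± 0.23 (SE), adjusted p = 9.50e-05. Male Acot2 averaged 8.39 ± 5.31 on the HF/HS diet and 4.46 ± 4.73 on the control diet, a log2 difference of 0.96 ± 0.15 (SE), adjusted p = 8.81e-07. Acot1, Acot2 and Vnn1 were higher on the HF/HS diet in 10 of 10 male strains. The fat cell marker Cfd rose in males too, by 1.05 ± 0.16 (SE), and its part in these results was not tested. In females Acot1 differed by 0.42 ± 0.24 (SE), adjusted p = 0.229, and Acot2 by 0.38 ± 0.16 (SE), adjusted p = 0.0758; neither was called with all libraries. Acot2 in females was called without strain CC013 (0.48, adjusted p = 0.0288), without the female HF/HS libraries numbered 1 (0.58, adjusted p = 0.00811) and without the female control libraries numbered 3 (0.57, adjusted p = 0.00907).

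The difference between the sexes in diet response was tested itself, and 0 of the 10 genes were called at an adjusted p under 0.05, against 0.877% of all tested genes. Vnn1 had the smallest adjusted p, with a male minus female diet difference of 0.73 ± 0.23 (SE), adjusted p = 0.115. It was called once CC043, the strain lowest in Vnn1, was left out (0.91, adjusted p = 0.0351). At an unadjusted p under 0.05, 7 of the 10 passed, where 11.5% of all tested genes did. They did not share a direction. Male minus female differences were 0.30 to 0.74 in Acot1, Acot2, Acot4, Acot12 and Vnn1, and negative in Acot13 (-0.21) and Nudt7 (-0.41). Acot1, Acot2 and Acot4 share sequence, so they are not independent of each other. The Acot1 to Acot4 sum differed by 0.80 ± 0.17 (SE), adjusted p = 0.000256, in males. In females its difference was -0.0063 ± 0.18 (SE), adjusted p = 0.988, and the difference between the sexes was 0.80 ± 0.25 (SE), adjusted p = 0.0981. The genes weigh differently in this sum by sex. On the control diet Acot3 averaged 91.6 and Acot1 56.2 in females, against 6.62 and 19.0 in males.

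Acot12, the acetyl-CoA hydrolase, averaged 83.5 ± 18.9 on the HF/HS diet and 76.6 ± 19.5 on the control diet (SD, n = 59 each). Its log2 difference was 0.12 ± 0.049 (SE), adjusted p = 0.0411, and in males 0.28 ± 0.068 (SE), adjusted p = 0.00147. In females it was -0.026 ± 0.070 (SE), adjusted p = 0.839. The call over all strains was lost in 15 of 34 alternatives, among them without CC013 (adjusted p = 0.0512), CC032 (adjusted p = 0.101), CC042 (adjusted p = 0.111) or CC060 (0.085, adjusted p = 0.196) and with strain as the unit (adjusted p = 0.0693). It was also lost without libraries numbered 2 or 3 of female HF/HS, 1 or 2 of female control, 1, 2 or 3 of male HF/HS or 2 of male control, with adjusted p between 0.0586 and 0.179.

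Nudt19, a peroxisomal CoA hydrolase, was the gene that fell: it averaged 30.7 ± 12.3 on the HF/HS diet and 33.9 ± 14.2 on the control diet (SD, n = 59 each), a log2 difference of -0.13 ± 0.030 (SE), adjusted p = 0.000429. The diets overlapped widely, and 15 of 20 strain-sex means were lower on the HF/HS diet. With strain as the unit the call over all strains was lost (adjusted p = 0.0519). In males it differed by -0.16 ± 0.042 (SE), adjusted p = 0.00375, and that call was lost without CC043 (-0.11, adjusted p = 0.0696) without the male HF/HS libraries numbered 3 (-0.13, adjusted p = 0.0534) and with strain as the unit (adjusted p = 0.221). In females it differed by -0.10 ± 0.043 (SE), adjusted p = 0.0851, and was called without CC040 (-0.14, adjusted p = 0.0258) and without the male control libraries numbered 3 (-0.10, adjusted p = 0.0462).

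The other 5 genes were not called for diet over all strains. Pank1, which starts CoA synthesis, averaged 68.4 ± 16.5 on the HF/HS diet and 72.6 ± 17.5 on the control diet, a log2 difference of -0.086 ± 0.041 (SE), adjusted p = 0.0997. It was called without CC032 (-0.12, adjusted p = 0.0362), without the female HF/HS libraries numbered 2 (-0.12, adjusted p = 0.0379) and without the female control libraries numbered 1 (-0.12, adjusted p = 0.0267). Nudt7 averaged 554 ± 371 on the HF/HS diet and 618 ± 445 on the control diet, a difference of -0.044 ± 0.083 (SE), adjusted p = 0.724. Its difference was -0.25 ± 0.12 (SE), adjusted p = 0.125 in males, called without CC003 and CC060 (-0.33, adjusted p = 0.0185) and without the female control libraries numbered 1 (-0.25, adjusted p = 0.0343). Acot13 differed by 0.049 ± 0.047 (SE), adjusted p = 0.454, Acot4 by 0.063 ± 0.085 (SE), adjusted p = 0.604 and Acot3 by -0.026 ± 0.18 (SE), adjusted p = 0.931. In females Acot13 differed by 0.15 ± 0.068 (SE), adjusted p = 0.101, and was called without CC011 (0.21, adjusted p = 0.00750) and without the female HF/HS libraries numbered 1 (0.21, adjusted p = 0.0123). In males Acot4 differed by 0.27 ± 0.12 (SE), adjusted p = 0.105, and was called without CC043 (0.39, adjusted p = 0.0249).

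**Figure D2:**
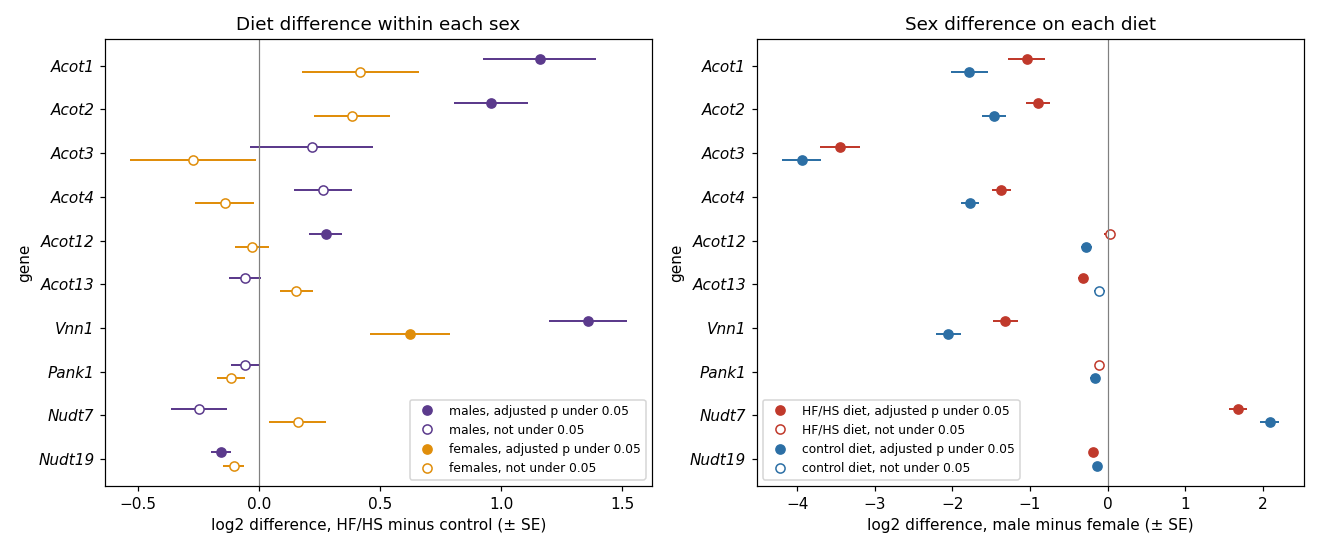
Left, log2 difference of HF/HS minus control in males (purple) and females (orange); right, log2 difference of male minus female on the HF/HS diet (red) and the control diet (blue), for the 10 genes, with bars of 1 SE and filled points at an adjusted p under 0.05. Acot1, Acot2 and Vnn1 lie right of 0 on the left and left of 0 on the right, and Nudt7 is the only gene far to the right of 0 in the sex panel.

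Set against single strain-sex groups of 3 libraries (2 for CC040 females), the HF/HS libraries lay above all control libraries of the same strain and sex in 39 of 200 gene-group pairs (19.5%) and below them in 14 (7.0%), where 11.1% and 10.6% of all such pairs over tested genes did so. Acot2 and Vnn1 were above without overlap in 8 of 20 groups each, Acot12 in 6, Acot1 in 5, Acot13 in 3, Acot4, Nudt7, Nudt19 and Pank1 in 2 each, and Acot3 in 1. Nudt19 was below without overlap in 5 groups, Nudt7 in 4, Pank1 in 3, and Vnn1 and Acot13 in 1 each. The group with Vnn1 lower was CC019 females, with 47.0, 23.4 and 26.3 on the HF/HS diet, against 55.6, 60.9 and 52.9 on the control diet.

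CC042 males gave the largest group difference of all 4 type I genes. Acot1 had 47.3, 37.9 and 50.5 in CC042 males on the HF/HS diet, against 5.25, 6.52 and 8.26 on the control diet. Acot3 had 27.8, 15.4 and 25.5 on the HF/HS diet, against 0.919, 1.01 and 0.866 on the control diet. None of these libraries overlapped between the diets, and the group log2 differences were 2.60 for Acot1, 2.26 for Acot2, 3.59 for Acot3 and 1.66 for Acot4. In CC043 males Acot4 went the other way, with 21.9, 11.7 and 13.3 on the HF/HS diet, against 31.5, 21.3 and 31.3 on the control diet, which overlapped.

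The strains were tested one by one with both sexes together. Vnn1 rose in CC003 (1.63 ± 0.36 SE, adjusted p = 0.00114), CC042 (1.54 ± 0.36 SE, adjusted p = 0.00380), CC043 (1.37 ± 0.36 SE, adjusted p = 0.0124), CC060 (1.17 ± 0.36 SE, adjusted p = 0.0212) and CC032 (1.12 ± 0.36 SE, adjusted p = 0.0483). Acot2 rose in CC042 (1.20 ± 0.34 SE, adjusted p = 0.0240) and in CC060 (1.18 ± 0.34 SE, adjusted p = 0.0133), and Acot1 in CC060 (1.81 ± 0.52 SE, adjusted p = 0.0130). Acot4 rose in CC042 (0.85 ± 0.27 SE, adjusted p = 0.0443), Acot12 in CC060 (0.48 ± 0.15 SE, adjusted p = 0.0247), and Nudt19 fell in CC043 (-0.41 ± 0.094 SE, adjusted p = 0.00351). That made 4 calls in CC060, 3 in CC042, 2 in CC043 and 1 each in CC003 and CC032, where 13.4%, 4.53%, 6.04%, 9.80% and 5.57% of all tested genes were called. None of the 10 genes were called in CC011, CC013, CC019, CC040 or CC041, where 0.197%, 0.410%, 0.852%, 0.402% and 4.44% of all tested genes were. The 11 calls became 5 without the female or the male HF/HS libraries numbered 3, and 6 without the female HF/HS libraries numbered 2.

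Whether the diet effect differs between strains was tested with an F test on 9 contrasts. It called 0 of the 10 genes, against 5.54% of all tested genes. The smallest adjusted p were those of Acot4 (F = 2.23, adjusted p = 0.184), Nudt19 (F = 2.17, adjusted p = 0.198) and Vnn1 (F = 1.97, adjusted p = 0.259), and at an unadjusted p under 0.05 Acot4 and Nudt19 passed, 2 of the 10, where 20.1% of all tested genes did. The calls in single strains are therefore not shown to differ from the strains without them.

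**Figure D3:**
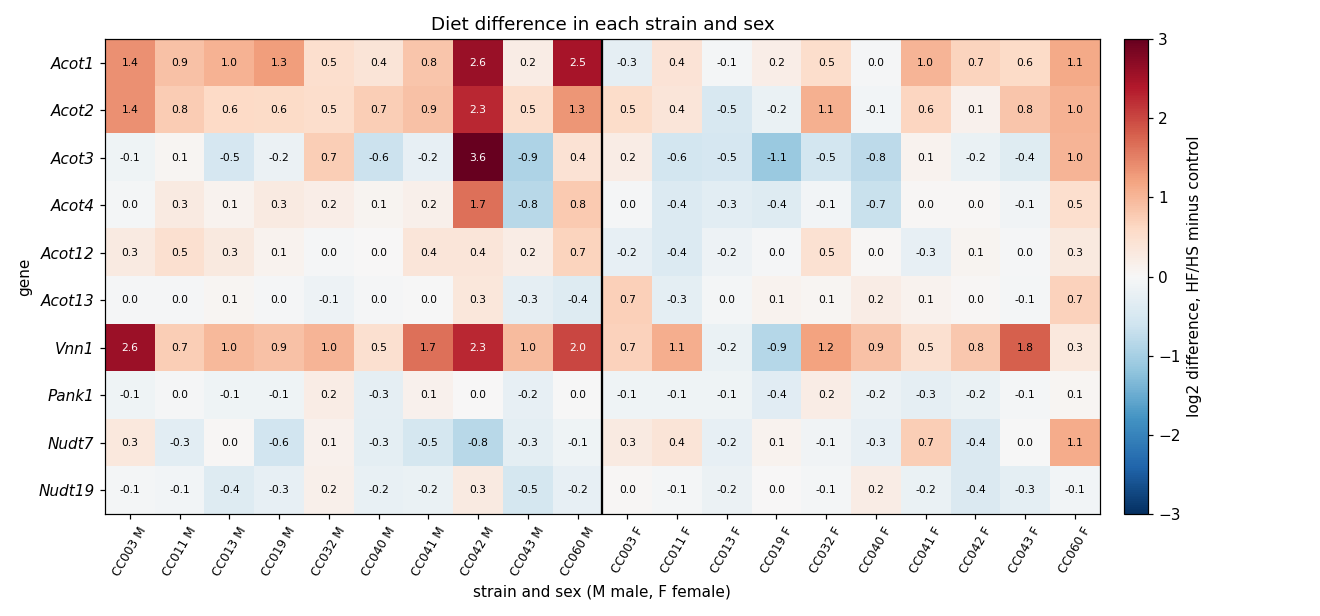
Log2 difference of HF/HS minus control for each gene (rows) in each strain and sex (columns, males left of females), blue lower and red higher on the HF/HS diet. Acot1, Acot2 and Vnn1 are above 0 in all 10 male columns, and the CC042 male column holds the largest values of the 4 type I genes, up to 3.59 for Acot3.

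The sex comparison was larger than the diet comparison for most of the genes. On the control diet, 8 of the 10 genes were lower in males and Nudt7 was higher, where 43.5% of all tested genes were called. Under HF/HS feeding, 7 were lower in males and Nudt7 was higher, where 45.4% of all tested genes were called. Over all strains, sex carried 67.9% of the summed squares of Nudt7 on the log2 scale, 60.3% of Acot3 and 55.6% of Acot4, and diet carried at most 9.82% of any of the 10, for Vnn1.

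Acot3, a peroxisomal thioesterase, had the largest difference. On the control diet it had a lowest value of 0.0117, a median of 2.49 and a highest of 36.0 in males (n = 30), against a lowest value of 5.10, a median of 68.3 and a highest of 248 in females (n = 29). The log2 difference was -3.94 ± 0.26 (SE), adjusted p = 1.61e-23. In CC060 and CC019 males it was under 1 in all libraries of both diets. On the HF/HS diet it had a lowest value of 0.140, a median of 2.66 and a highest of 43.9 in males, against a lowest value of 1.66, a median of 66.7 and a highest of 195 in females, a log2 difference of -3.45 ± 0.26 (SE), adjusted p = 2.79e-20. Male and female libraries of the same strain did not overlap in 8 of 10 strains under HF/HS feeding and in 9 under control feeding.

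Acot4, its peroxisomal neighbour, had 3.67 to 45.4 (median 13.6) in males and 25.2 to 102 (median 48.7) in females on the control diet, a log2 difference of -1.77 ± 0.12 (SE), adjusted p = 1.00e-22. All 10 strains were without overlap there. Under HF/HS feeding Acot4 had 5.21 to 46.1 (median 16.7) in males and 10.3 to 99.3 (median 47.5) in females, a difference of -1.37 ± 0.12 (SE), adjusted p = 9.21e-17. Acot1 differed between the sexes by -1.04 ± 0.24 (SE), adjusted p = 0.000174, under HF/HS feeding and by -1.78 ± 0.24 (SE), adjusted p = 1.43e-09, under control feeding, being lower in males in 9 of 10 strains on each. Acot2 differed by -0.89 ± 0.15 (SE), adjusted p = 1.41e-06, under HF/HS feeding and by -1.47 ± 0.15 (SE), adjusted p = 3.33e-13, under control feeding. The sum of Acot1 and Acot2 differed by -1.04 ± 0.23 (SE), adjusted p = 9.24e-05, under HF/HS feeding. Under control feeding that sum differed by -1.81 ± 0.23 (SE), adjusted p = 1.88e-10. The Acot1 to Acot4 sum differed by -1.66 ± 0.17 (SE), adjusted p = 2.22e-13, and by -2.46 ± 0.17 (SE), adjusted p = 1.24e-21, in the same order.

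Nudt7, which breaks CoA down in peroxisomes, was the gene with more RNA in males. On the control diet it had a lowest value of 583, a median of 918 and a highest of 2153 in males, against a lowest value of 47.4, a median of 255 and a highest of 604 in females. The log2 difference was 2.09 ± 0.12 (SE), adjusted p = 1.31e-27, a fold of 4.25, and no library overlapped between the sexes within any of the 10 strains. On the HF/HS diet it had a lowest value of 446, a median of 772 and a highest of 1589 in males, against a lowest value of 76.3, a median of 242 and a highest of 626 in females, with a log2 difference of 1.68 ± 0.12 (SE), adjusted p = 6.06e-22, and CC019 was the strain with overlap. Its strain order on the control diet began with CC003, CC011 and CC040 and ended with CC060 in males. In females the order began with CC011, CC003 and CC041 and ended with CC019. Most neighbours overlapped, and in CC003 and CC060 strain and library preparation cannot be told apart.

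Vnn1, the pantetheinase, had 0.593 to 69.0 (median 6.56) in males and 1.68 to 92.5 (median 42.0) in females on the control diet, a log2 difference of -2.05 ± 0.16 (SE), adjusted p = 8.45e-19. On the HF/HS diet it had 2.05 to 115 (median 20.3) in males and 11.9 to 139 (median 56.0) in females, a difference of -1.32 ± 0.16 (SE), adjusted p = 1.32e-10. The ranges of the sexes overlapped across strains, and the male libraries lay below the female libraries without overlap in 8 of 10 strains under HF/HS feeding and in 7 under control feeding.

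The remaining genes differed little by sex. On the control diet Acot12 differed by -0.27 ± 0.069 (SE), adjusted p = 0.000752, Pank1 by -0.17 ± 0.058 (SE), adjusted p = 0.0145, Nudt19 by -0.13 ± 0.043 (SE), adjusted p = 0.00844 and Acot13 by -0.11 ± 0.067 (SE), adjusted p = 0.202. With strain as the unit, the calls of Acot12 (adjusted p = 0.0824), Pank1 (adjusted p = 0.216) and Nudt19 (adjusted p = 0.230) were lost. The Pank1 call was lost without CC019 (-0.11, adjusted p = 0.151), CC041 (-0.13, adjusted p = 0.0517) or CC042 (-0.14, adjusted p = 0.0622) and without the control libraries numbered 3 of females (-0.093, adjusted p = 0.228) or males (-0.15, adjusted p = 0.0620). The Nudt19 call was lost without CC042 (-0.070, adjusted p = 0.228) and without the control libraries numbered 1 of females (-0.12, adjusted p = 0.0539) or males (-0.11, adjusted p = 0.0625). Acot13 was called without CC060 (-0.16, adjusted p = 0.0185) and without the male control libraries numbered 3 (-0.17, adjusted p = 0.0458). On the HF/HS diet Acot13 differed by -0.32 ± 0.067 (SE), adjusted p = 5.62e-05 and Nudt19 by -0.19 ± 0.043 (SE), adjusted p = 0.000200. Acot12 differed there by 0.028 ± 0.069 (SE), adjusted p = 0.769 and Pank1 by -0.11 ± 0.058 (SE), adjusted p = 0.113, and Pank1 was called without CC011 (-0.16, adjusted p = 0.0218), CC032 (-0.17, adjusted p = 0.0251) or the female HF/HS libraries numbered 1 (-0.16, adjusted p = 0.0181).

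Within single strains on the control diet, male libraries lay above all female libraries in 13 of 100 gene-strain pairs (10 of them Nudt7) and below in 52, where 15.9% and 12.9% of all such pairs over tested genes did so. With HF/HS feeding they lay above in 11 pairs (9 of them Nudt7) and below in 49, where 17.3% and 14.6% of all pairs did so.

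The size of the sex difference was not the same in every strain. An F test on the 10 strains' male minus female differences on the control diet, run after the values had been seen, called 7 of the 10 genes, where 12.4% of all tested genes were called. Vnn1 had the smallest adjusted p (F = 6.01, adjusted p = 0.000122), followed by Nudt19, Nudt7, Pank1, Acot2, Acot4 and Acot12 (adjusted p = 0.00854 to 0.0332). Acot1 (0.0692), Acot3 (0.112) and Acot13 (0.302) were not called. Vnn1 kept its call in all 33 alternatives. The count was 3 without CC019, CC032 or CC042, 2 without the female or the male control libraries numbered 2, and 4 without the male control libraries numbered 1 or the male HF/HS libraries numbered 2.

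In CC032 and CC040 males, Vnn1 was near the female level. Vnn1 had 44.6, 69.0 and 27.1 in CC032 males, against 69.3, 46.0 and 52.9 in CC032 females on the control diet. It had 2.01, 5.04 and 5.13 in CC019 males, against 55.6, 60.9 and 52.9 in CC019 females, where the log2 difference was -3.57. The libraries overlapped in CC032 and not in CC019. Acot2 had 18.7, 19.3 and 7.11 in CC032 males, against 14.5, 10.3 and 9.90 in CC032 females, and 0.758, 0.394 and 0.210 in CC060 males, against 10.6, 4.76 and 3.51 in CC060 females. CC032 was the strain where mean Acot1 and Acot2 were not lower in males on the control diet, at log2 differences of 0.21 and 0.26.

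Strains differed on the control diet in all 10 genes by an F test over the 8 strains other than CC003 and CC060, where 86.5% of all tested genes were called. The largest F values were those of Nudt19 (F = 72.1, adjusted p = 1.77e-30), Acot13 (F = 38.3, adjusted p = 6.91e-22) and Vnn1 (F = 20.4, adjusted p = 1.72e-14). The calls of Acot1 without CC019 (adjusted p = 0.109) or the male control libraries numbered 1 (adjusted p = 0.0793), of Acot12 without CC042 (adjusted p = 0.0653) and of Pank1 without CC041 (adjusted p = 0.0992) or CC042 (adjusted p = 0.103) were lost. Those of Acot12 and Pank1 were also lost without the control libraries of some numbers, with adjusted p between 0.0514 and 0.254. Over these 8 strains, strain carried 87.2% of the summed squares of Nudt19 and 88.5% of those of Acot13; over all 10 strains, where CC003 has the lowest Nudt19, it carried 90.1% and 81.2%.

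Acot13 had low and high strains. Over both sexes and diets it had 31.0 to 40.8 in CC032 and 34.1 to 46.0 in CC043, with means of 35.6 ± 3.44 and 40.5 ± 4.08 (SD, n = 12 each). In the other 8 strains the strain means were between 94.9 in CC019 and 118.3 in CC060. The CC060 mean includes a male control library at 227, and the CC060 median was 110. In CC003 and CC060 strain and library preparation cannot be told apart. On the control diet no library of CC032 or CC043 reached those of the other 8 strains in either sex, where the lowest was 66.5 in CC060 females. A CC011 female HF/HS library at 44.9 was above every HF/HS library of CC032 and CC043 and below the highest CC043 control library, at 46.0. That CC011 library also held the highest Vnn1 of all libraries used (139). Among female HF/HS libraries it held the lowest Acot3 (1.66), Acot4 (10.3) and Acot12 (22.8). Neighbours among the 8 higher strains overlapped in both sexes.

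Nudt19 had 10.9 to 22.6 in CC013 and 12.8 to 23.9 in CC041 over both sexes and diets, against 38.4 to 58.9 in CC011 and 33.1 to 61.8 in CC043. It was also low in CC003, with 9.53 to 15.2, where strain and library preparation cannot be told apart. No library of CC003, CC013 or CC041 reached any of the other 7 strains, whose lowest was 26.2 in CC060. Among control libraries, CC013 and CC041 overlapped each other in both sexes, as did CC043 and CC011 at the top. The fall on the HF/HS diet was called in CC043 and in no other strain, and Nudt19 had 42.8, 33.3 and 33.1 in CC043 males on the HF/HS diet, against 50.04, 47.3 and 61.8 on the control diet.

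Vnn1 was lowest in CC043. Male CC043 libraries had 4.28, 2.05 and 4.98 on the HF/HS diet, against 0.593, 0.731 and 3.77 on the control diet. Female CC043 libraries had 11.9, 47.8 and 18.2 on the HF/HS diet, against 1.68, 5.25 and 16.6 on the control diet. In control libraries, CC043 females did not overlap the next strain, CC041, and CC043 males overlapped CC041 males. CC032 had the highest Vnn1 on the HF/HS diet in males, at 68.0, 93.4 and 115, against 44.6, 69.0 and 27.1 on the control diet.

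**Figure D4:**
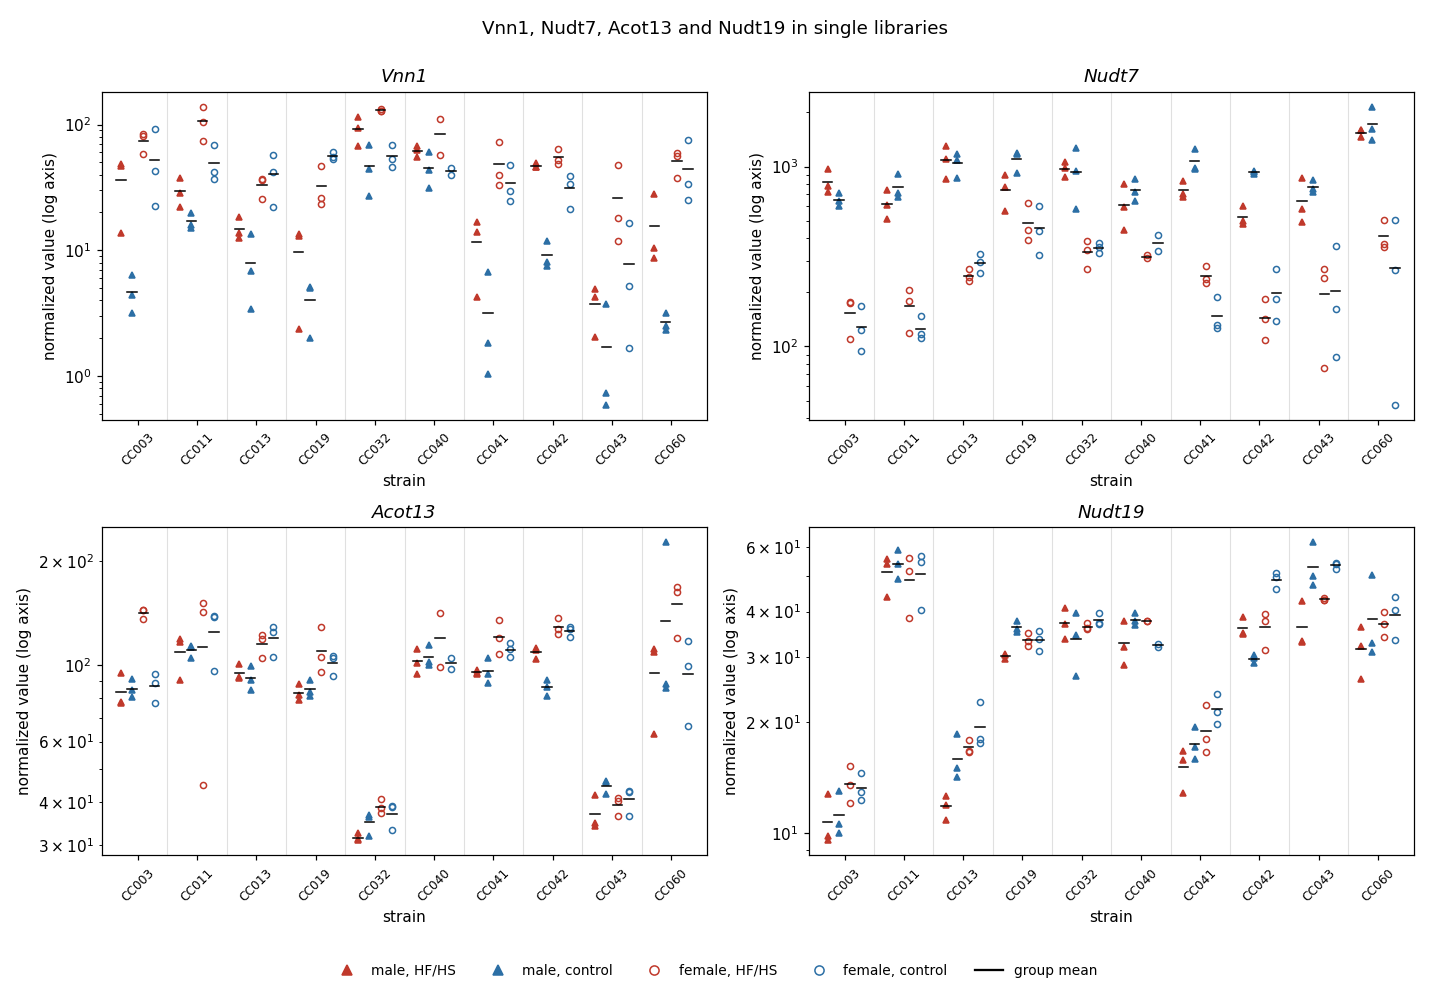
Normalized value (log axis) of Vnn1, Nudt7, Acot13 and Nudt19 in each library, by strain, drawn as in the plot of the type I genes. Nudt7 is higher in males in all strains, Acot13 is low in CC032 and CC043 at 31.0 to 46.0, and Nudt19 is low in CC003, CC013 and CC041.

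Within groups of the same strain, sex and diet, Acot1 and Acot2 varied together (Pearson r = 0.93 over all libraries used), and so did Acot3 and Acot4 (r = 0.93). Across these pairs r was 0.58 to 0.72. These pairs share the library and its scaling. Acot1 and Acot2 share sequence, and so do Acot3 and Acot4, which also overlap the same gene model Gm49366, so r is a description. Acot1 with Nudt7 had r of -0.32 and Vnn1 with Nudt7 r of -0.47. Over the 20 strain-sex diet differences, r was 0.80 for Acot1 with Acot2, 0.89 for Acot3 with Acot4 and 0.61 for Acot1 with Vnn1.

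Among all other tested genes, those whose 20 diet differences were most like Acot2 were Pex11a, a peroxisome division gene (Pearson r = 0.85), Slc25a20, the mitochondrial carnitine-acylcarnitine carrier (0.83), and Aldh3a2, a fatty aldehyde dehydrogenase (0.81). Those most like Acot1 were Chdh (0.81), Hsdl2 (0.80) and Gigyf2 (0.79), and those most like Vnn1 were Hsdl2 (0.78), Pex11a (0.76) and Acad11 (0.75). Acnat1, a peroxisomal acyltransferase for fatty acids in mice, was among the 3 most like both Acot3 (0.81) and Acot4 (0.80). The others were Mir1904 (0.84) and A4gnt (0.80) for Acot3, and Cyp2a4 (0.78) and Abhd2 (0.76) for Acot4. Acot12 went with Abcc2, Cmtm4 and Gm10768 (0.87 to 0.88), Acot13 with Pcbd1, Shmt1 and Ndufb4 (0.86 to 0.88), and Pank1 with Kidins220, Mtor and Gpd2 (0.80 to 0.85). Nudt7 went with Insc (0.77) and Coa4 (0.70), and Nudt19 with Pdhb, Lrrc28 and Mid1ip1 (0.75 to 0.82). Each r is over 20 strain-sex groups, and the genes were picked for it from all other tested genes.

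The counts of related genes that follow are read against the 32.6% of all tested genes called for diet over all strains. Of 15 other thioesterase genes, 12 were tested, and 6 rose and 1 fell on the HF/HS diet. Ppt1, the lysosomal palmitoyl-protein thioesterase, rose by 0.20 ± 0.022 (SE), adjusted p = 7.13e-12, Acot11 by 0.50 ± 0.069 (SE), adjusted p = 9.18e-09, the mitochondrial Acot9 by 0.27 ± 0.041 (SE), adjusted p = 1.71e-07 and Them6 by 0.21 ± 0.041 (SE), adjusted p = 2.16e-05. Of 11 genes of CoA synthesis and carriers, 4 rose and 1 fell. Pank3, a paralog of Pank1, fell, with a difference of -0.27 ± 0.034 (SE), adjusted p = 8.67e-10, while the mitochondrial CoA carrier Slc25a42 rose by 0.22 ± 0.055 (SE), adjusted p = 0.000943, Coasy, the last enzymes of CoA synthesis, by 0.11 ± 0.031 (SE), adjusted p = 0.00477 and Dcakd by 0.082 ± 0.027 (SE), adjusted p = 0.0150.

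Of 5 other genes listed under CoA and pantetheine breakdown, 1 rose and 1 fell, where 32.6% of all tested genes were called. The gene that rose was Enpp2, by 0.27 ± 0.056 (SE), adjusted p = 7.38e-05. It codes for autotaxin, which is not known mainly for breaking down CoA. Enpp1 differed by -0.16 ± 0.023 (SE), adjusted p = 3.75e-08. Enpp3 differed by 0.11 ± 0.053 (SE), adjusted p = 0.109 and Nudt8 by -0.036 ± 0.037 (SE), adjusted p = 0.487. Of 17 acyl-CoA synthetase and binding protein genes, which make and carry acyl-CoA, 14 were tested, and 3 rose and 5 fell, against the same 32.6%. Acss2, the cytosolic acetyl-CoA synthetase, differed by -1.35 ± 0.13 (SE), adjusted p = 2.85e-14, Acsl3 by -0.48 ± 0.074 (SE), adjusted p = 1.60e-07 and Acsl4 by -0.27 ± 0.047 (SE), adjusted p = 2.75e-06, and Acsm5 rose by 0.32 ± 0.050 (SE), adjusted p = 3.49e-07.

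Of 22 genes that are PPAR-alpha or its known mouse targets, 18 rose and 1 fell on the HF/HS diet. Over all strains, 32.6% of all tested genes were called for diet. The list was chosen with earlier results of these data known, so its counts and median are a description. In males 18 rose and 0 fell, where 20.9% of all tested genes were called, and in females 6 rose and 0 fell, where 17.7% were. The male minus female diet difference itself was called in 1 of the 22, Aldh3a2. Acaa1a and Acaa1b, thiolases of peroxisomal beta-oxidation, rose by 0.58 ± 0.048 (SE), adjusted p = 3.83e-17 and by 0.90 ± 0.11 (SE), adjusted p = 2.81e-10. Aldh3a2 rose by 0.80 ± 0.082 (SE), adjusted p = 3.20e-13, with a male minus female diet difference of 0.71 ± 0.16 (SE), adjusted p = 0.0119, and Acadm, a mitochondrial acyl-CoA dehydrogenase, rose by 0.33 ± 0.045 (SE), adjusted p = 3.99e-09. Between the sexes, 4 of the 22 were lower and 3 higher in males on the HF/HS diet, where 45.4% of all tested genes were called, and 13 were lower and 0 higher in males on the control diet, where 43.5% were. The median log2 difference of the list was 0.24 by diet, against 0.00059 over all tested genes.

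Markers of cell types were called for diet and sex too, and fewer cells of a type and less RNA per cell cannot be told apart in bulk liver. Their counts by diet are read against the 32.6% of all tested genes called over all strains. For sex on the control diet that share was 43.5%. Some of the counts below lie near these shares. With HF/HS feeding, 1 of 8 hepatocyte markers rose and 6 fell, and their summed level was 18311 to 75894 on the HF/HS diet and 18656 to 105010 on the control diet, with Alb at 0 in most libraries. Of 8 macrophage markers 5 rose and 0 fell, with sums of 58.6 to 899.9 on the HF/HS diet and 121 to 774 on the control diet. Of 6 stellate cell markers 3 rose (sums 139.8 to 352 on the HF/HS diet, 119 to 327 on the control diet), and of 6 endothelial markers 2 rose (sums 111 to 282 on the HF/HS diet, 123 to 241 on the control diet), with none lower in either list. Of 5 bile duct markers 2 were tested and 1 rose, of 5 lymphocyte markers the tested Nkg7 was not called, and of 4 fat cell markers the tested Cfd rose, with Plin1 and Lep at 0 in most libraries. The Cfd difference by diet was 1.05 ± 0.16 (SE), adjusted p = 2.62e-07, in males and -0.027 ± 0.16 (SE), adjusted p = 0.933, in females, and the difference between these was 1.08 ± 0.23 (SE), adjusted p = 0.00504. Summed fat cell markers in males were 0 to 402 (median 0.621) on the HF/HS diet and 0 to 13.4 (median 0.072) on the control diet. No pancreas marker was abundant enough to test, with Prss2 and Cpa1 at 0 in most libraries. Between the sexes on the control diet, 3 hepatocyte markers were higher in males, and 5 macrophage and 5 endothelial markers were lower in males. Macrophage sums there were 121 to 467 in males and 135 to 774 in females, endothelial sums 123 to 214 in males and 125 to 241 in females, and hepatocyte sums 25156 to 105010 in males and 18656 to 98857 in females. The part of these cell type differences in the results for the 10 genes was not tested.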

How the data were processed

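Livers of 10 Collaborative Cross strains, both sexes and 2 diets were measured by RNA-seq, with 3 libraries in each of 40 groups. The deposited table was read as normalized FPKM values per gene, from its values and the tools named, since its header names no unit. The 75th percentile of the deposited values is 9.983 to 10.0 in each library. The submitters' processing notes name mm10, Cufflinks 2.2.1, TopHat2 2.1.1 and Bowtie2 2.2.5.0, with no order. Per the labels, libraries came from a Ribo-Zero or an mRNA kit, and which library had which is not given. Read depth is unknown, so no counting interval is given.

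Values were tested with limma 3.58.1 (R 4.3.3) on log2(value + 1) with 40 group means, an intensity trend and robust variances, taking genes whose mean value over the libraries used reached 1; p-values were adjusted by Benjamini-Hochberg over all 12203 genes. The script was tested on simulated data. The 2 libraries with equal values were left out. The members and lists were chosen with earlier results of these data known, and the test of strain differences in the sex difference was added after values were seen. Beyond the members, genes named are up to 4 tested genes of each list (cell type lists aside) with the lowest p for diet over all strains, and the 3 genes per member with a symbol used once whose 20 diet differences had the highest Pearson r with its own; 1 of these is not reported here. Alternatives were other pseudocounts (0.1 and 5), no filter or a mean of 5, quantile normalization, strain as the unit, a replicate block, paralog sums, and leaving out strains or replicates.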

Additional observations from a re-analysis of the deposited data

Results flagged for a closer look

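The male minus female difference on the control diet was called as differing between strains for 7 genes, where 12.4% of all tested genes were called. These were limma F tests over the 10 strains, adjusted over all tested genes, and were added after the values had been seen. The count of 7 depended on the libraries used: it was 3 without CC019, CC032 or CC042. It was 2 without the female or the male control libraries numbered 2, and 8 with a replicate block over all groups. The adjusted p was 0.000122 for Vnn1, 0.00854 for Nudt19, 0.0114 for Nudt7, 0.0209 for Pank1, 0.0256 for Acot2, 0.0277 for Acot4 and 0.0332 for Acot12. The log2 difference of Vnn1 was -3.57 in CC019 and 0.03 in CC040. The part of library preparation and of cell type markers in these differences was not tested.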

How the results depend on the processing

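The 90 results for the 10 genes were recomputed in 3066 alternatives: 2918 kept direction and side of the threshold, 84 lost a call, 35 gained a call and 29 changed sign. Of the count of genes called for diet over all strains (5), strain as the unit left 3, and that setting called 2072 of all genes against 3975. In females (1 called) the count was 2 with quantile normalization, without the CC003 and CC060 libraries, and without CC011, CC013 or CC040, 0 with strain as the unit, and 0 to 3 without libraries of 1 number. The male minus female diet count was 1 without CC043. For strain differences of the sex difference (7) it was 3 without CC019, CC032 or CC042, and 2 to 9 without libraries of 1 number. Over single strains (11) it was 7 with pseudocount 5, and 5 to 14 without libraries of 1 number.

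The sign changes were in differences not called as reported, and of the changed values the Acot1 to Acot4 sum set against Acot3 over all strains was called (adjusted p = 0.00909). Acot3 over all strains (-0.026 as reported) was 0.046 with pseudocount 0.1, 0.027 without CC013, 0.043 without CC019, 0.050 without CC040, 0.042 without CC043, 0.39 as the Acot1 to Acot4 sum and -0.17 to 0.18 without libraries of 1 number. Without libraries of 1 number it was -0.56 to 0.14 in females, and it was -0.16 in males without CC042. Acot4 over all strains was -0.025 without CC042, -0.0018 without CC060 and -0.0051 to 0.15 without libraries of 1 number, which gave -0.28 to 0.044 in females. Acot12 in females was 0.016 without CC011 and -0.090 to 0.037 without libraries of 1 number. Its sex difference on the HF/HS diet was -0.049 without CC011, -0.015 without CC013 and -0.035 to 0.092 without libraries of 1 number. Those also gave -0.098 to 0.0044 for Acot13 in males and -0.018 to 0.12 for the Pank1 male minus female diet difference. Nudt7 over all strains was 0.010 with quantile normalization, 0.021 without CC042 and -0.091 to 0.016 without libraries of 1 number. For Acot1 and Acot2 in females, the Acot1 to Acot4 sum gave -0.0063, while the sum of Acot1 and Acot2 alone gave 0.42 (adjusted p = 0.201), without a sign change. The Acot1 to Acot4 sum also holds Acot3 and Acot4, so it is a different quantity from any 1 of these genes. The cause of these changes was not tested, and depth in reads is unknown.

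Strain as the unit, which leaves fewer samples, ended the diet calls of Nudt19 over all strains (adjusted p = 0.0519) and in males (0.221), Acot12 over all strains (0.0693) and Vnn1 in females (0.116), and the calls by sex on the control diet of Acot12 (0.0824), Pank1 (0.216) and Nudt19 (0.230). Whether replicate numbers pair the samples is not settled: 9 of 58 pairs with the same number had deviations correlated over 0.1 (-0.22 to 0.36). With a replicate block over all groups the counts were 5 for diet over all strains, 1 in females, 5 in males and 0 for the difference between the sexes. The count over single strains was then 12, against 11 without the block. For strain differences of the sex difference it was 8, against 7, with Acot1 called at an adjusted p of 0.0462.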
